A study of Rattus norvegicus with 16 samples.

Results

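The 8 arrays described here are the liver arrays of unexposed male rat pups, which were hybridised together on 1 slide, and the question is which transcripts differed between the 4 arrays of its second row and the 4 of its first row. An array's row was read from the position recorded with its scan. They are 8 of the 16 arrays analysed here, and the other 8 lay on a second slide. Row 1 held CC 1, C 9, CC 2 and C 10, and row 2 held C 11, CC 3, C 12 and CC 4, so each row had 2 arrays of each group. The lower pool numbers of both groups all lay in row 1, so the row and the numbering of the pools cannot be told apart.

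All pups were Sprague-Dawley males aged 21 days whose dams had received corn oil without chemicals. C pups stayed with their own dams, and CC pups were nursed from birth by another control dam. RNA of 2 pups of a group, paired at random, was pooled for each array, and the litters behind a pool are not given in the labels used here. Liver RNA carried the dye Cy5 on every array, and a universal reference made from 14 rat cell lines carried Cy3. Dyes were not swapped. The second slide held M and MM pups, the own-dam and cross-fostered young of dams given 1 mg per kg per day of a chemical mixture, in which methylmercury was combined with polychlorinated biphenyls and organochlorine pesticides. It serves here only as a second set of rows from separate pups.

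A dissected liver sample holds hepatocytes, which secrete most plasma proteins and carry out detoxification, together with bile duct cells, vessels, connective tissue, blood and a mesothelial capsule. Pancreas, diaphragm muscle, abdominal fat and lymph nodes lie against the liver or its vessels. Transcripts that are abundant in those tissues and scarce in liver are therefore a sensitive readout of what a sample contains, and fewer cells of a type and less RNA per cell cannot be told apart in such bulk RNA. The reference channel holds no pup RNA by design, so Cy3 serves here as the control. It did not stay level for every gene. Cy3 of the muscle gene Ckm was 7.87 on CC 1 and 7.45 on CC 2, where its Cy5 was also high. On the other arrays of the slide it was 6.82 to 6.93. A row difference in Cy3 is therefore not taken as a measure of the array alone, and its cause was not tested.

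Values below are log2 ratios of Cy5 to Cy3 unless a channel is named, and a difference is row 2 minus row 1. The RNA was hepatic on all 8 arrays. Albumin (Alb) had a ratio of 7.13 to 9.01 in row 1 and 8.73 to 8.88 in row 2, and the hepatic uptake carrier Slco1b2 one of 6.22 to 6.92 over all 8 arrays. Median spot intensity in Cy5 was 99 to 101 in row 1 and 90.5 to 96 in row 2, and in Cy3 it was 135 to 150 and 130 to 135. The Cy5 ranges did not overlap, with means of 100 ± 0.854 and 94.5 ± 2.68 (SD, n = 4 per row, exact permutation test, two-sided p = 0.0286, the smallest that 70 arrangements allow, and 0.0856 after Benjamini-Hochberg adjustment over 3 measures). The share of spots well above background in Cy5 was 51.6% ± 1.34 in row 1 and 50.1% ± 1.14 in row 2 (SD, n = 4, exact permutation p = 0.171). These permutation tests moved all 8 arrays freely between the rows and, unlike the fits below, did not use group as a block. The 10 spiked control probes, whose RNA is added in the laboratory, had row differences between -0.02 and 0.06 with a median of 0.

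With group as a block, limma called 0 of 12260 genes between the rows in the ratio at an adjusted p below 0.05, 0 in Cy5 alone and 0 in Cy3 alone, so percent called was 0 in each. The smallest adjusted p was 0.108 in the ratio, 0.0737 in Cy5 and 0.47 in Cy3. At an unadjusted p below 0.05 there were 2158 genes in the ratio (17.6%), 2160 in Cy5 (17.6%) and 760 in Cy3 (6.20%). In the ratio 1226 of these were lower in row 2 (10% of genes) and 932 higher (7.60%), while in Cy5 the split was 945 lower (7.71%) and 1215 higher (9.91%), and in Cy3 it was 372 (3.03%) and 388 (3.16%). All 4 arrays of row 2 lay below all 4 of row 1 for 7.16% of genes in the ratio, 5.24% in Cy5 and 2.92% in Cy3, and above them for 5.32%, 6.58% and 2.40%. In Cy3 the rows thus lay apart for 5.32% of genes in either direction. The SD of the row difference over genes was 0.182 in the ratio, 0.176 in Cy5 and 0.0636 in Cy3, so the reference channel varied least. Most differences were small: for 98.6% of genes the 95% confidence interval lay within 2-fold of no difference. Only 20 genes were more than 2-fold lower in row 2 and 3 more than 2-fold higher, and the former were mostly transcripts of other tissues.

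**Figure D1:**
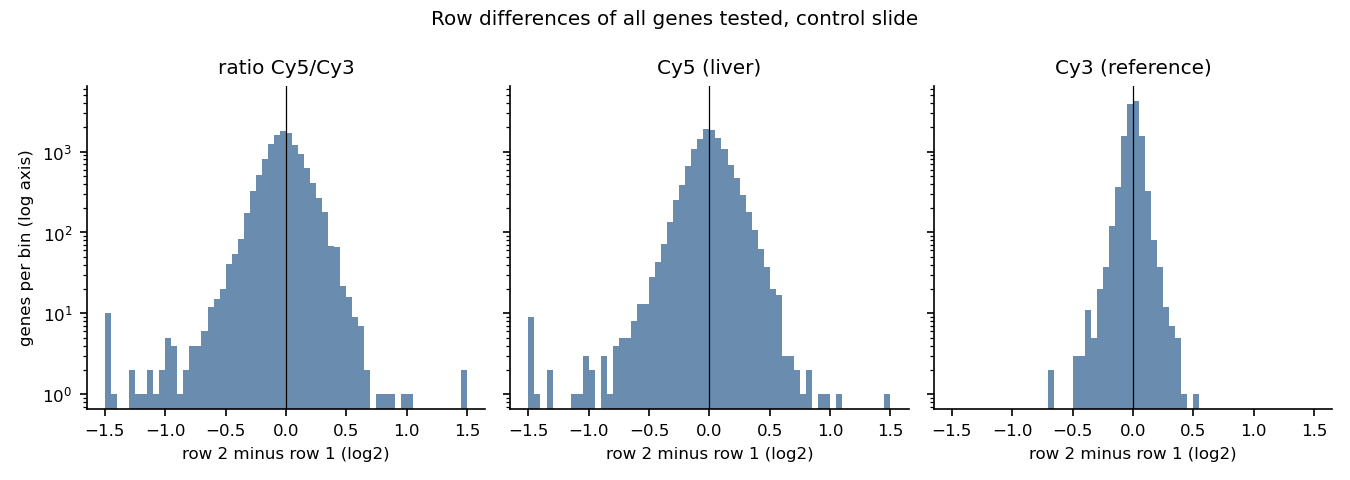
Row 2 minus row 1 for the 12260 genes tested on the control slide, in the ratio, in the liver channel Cy5 and in the reference channel Cy3, with the number of genes per bin on a log axis and values beyond 1.5 placed in the end bins. The reference channel is the narrowest (SD 0.0636 against 0.182 for the ratio and 0.176 for Cy5), and a tail of genes lower in row 2 is seen in the ratio and in Cy5.

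Skeletal muscle transcripts stood furthest apart, and they did so through 2 arrays of row 1. Of 38 muscle markers with a probe, 31 were above background on CC 1 and 32 on CC 2, against 8 to 9 on each of the other 6 arrays. Myoglobin (Mb), the oxygen store of muscle, had a ratio of 4.56 on CC 1, 4.65 on CC 2, 0.33 on C 9 and 0.15 on C 10, and of -0.04, 0.04, 0.03 and -0.03 on C 11, CC 3, C 12 and CC 4. The rows did not overlap for Mb, but C 9 and C 10 lay close to row 2. The fast troponin C gene Tnnc2 had 4.47 on CC 1 and 4.52 on CC 2 and lay between -0.47 and -0.38 on the other 6 arrays, so its rows overlapped. The perinatal myosin Myh8 had 4.11 and 4.22 on CC 1 and CC 2 against -1.26 to -1.06 elsewhere, and the light chain Myl11 had 2.79 and 2.43 against -2.69 to -2.48. Creatine kinase (Ckm) and skeletal actin (Acta1) were above background on CC 1 and CC 2 only. The filter asked for 3 arrays of a row, so neither entered the fit, and 9 of the 38 markers did. They were not dim on CC 1 and CC 2, where Cy5 was 11.11 and 10.75 for Ckm and 9.06 and 8.72 for Acta1. Ckm had a ratio of 4.78 and 4.83 there against -0.39 to -0.14 on the other 6 arrays, and Acta1 had 3.28 and 3.09 against -0.49 to -0.22.

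The row means of Mb were 2.42 ± 2.52 in row 1 and 0.00068 ± 0.0404 in row 2 (SD, n = 4), a difference of -2.42 ± 0.74 (SE, limma adjusted p = 0.164). Tnnc2 differed by -2.48 ± 0.824 (limma adjusted p = 0.187) and Myl11 by -2.61 ± 0.894 (limma adjusted p = 0.197). Of the 9 muscle list members tested, 8 were lower in row 2 at an unadjusted p below 0.05 and 0 higher, against 10% and 7.60% of all genes. None passed after adjustment, and the list's median difference was -1.54 against -0.02 over all genes. Within CC that median was -3.09 and within C it was 0.01, and without CC 1 it was -1.31. The count of 8 became 1 or 2 when CC 1, CC 2, CC 3 or CC 4 was left out, and was 8 or 9 when a C array was. Over these fits 1390 to 2198 of all 12260 genes passed in either direction, against 2158 with all arrays. In Cy5 alone the median of the muscle list was -1.66 and in Cy3 -0.05. On the mixture slide it was 0.01, with 7 to 11 of the 38 markers above background per array.

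**Figure D2:**
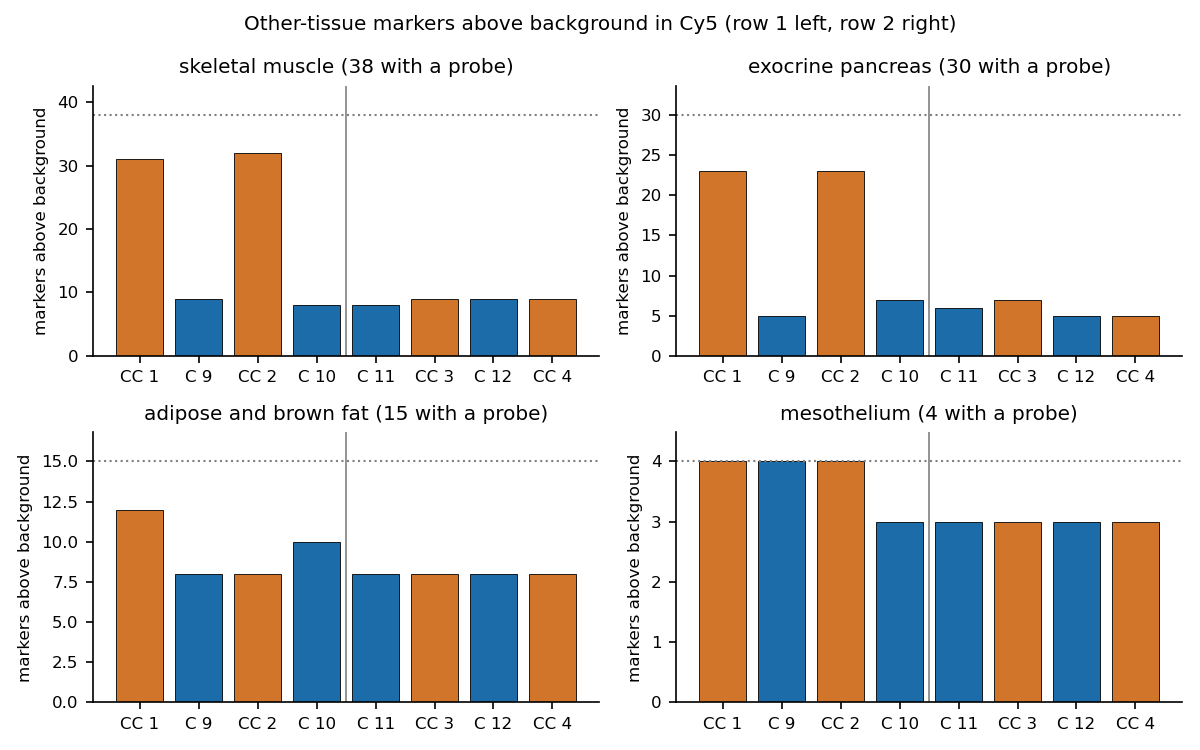
Number of marker genes whose Cy5 signal was above background on each control-slide array, for 4 tissues, with the number that have a probe as a dotted line, row 1 left and row 2 right, C arrays blue and CC arrays orange. CC 1 and CC 2 show 31 and 32 of 38 muscle markers and 23 of 30 pancreas markers each, and CC 1 and C 10 show 12 and 10 of 15 fat markers against 8 on the others.

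Transcripts of the exocrine pancreas followed the same 2 arrays. Of 30 markers with a probe, 23 were above background on CC 1 and 23 on CC 2, against 5 to 7 on the other 6. Chymotrypsinogen B (Ctrb1), a digestive protease precursor, had a ratio of 4.16 on CC 1 and 5.27 on CC 2, -0.18 on C 9 and 0.01 on C 10, and -0.07, 0.47, -0.24 and -0.38 on C 11, CC 3, C 12 and CC 4. It was lower in row 2 by -2.37 ± 0.819 (SE, limma adjusted p = 0.199), with -4.67 within CC and -0.07 within C. Carboxypeptidase B (Cpb1) had 4.45 and 5.44 on CC 1 and CC 2, 2.81 on C 9 and 0.78 on C 10, against 1.77 to 2.53 in row 2, and the ribonuclease Rnase1 had 2.33 and 3.91 on CC 1 and CC 2 against -0.32 to 0.42 on the other 6. Rnase1 was above background on 3 arrays of row 1 and 1 of row 2, so it entered the fit only through row 1. Unlike muscle, these genes had negative differences on the mixture slide too, at -2.08 ± 0.687 for Ctrb1, -1.20 ± 0.520 for Cpb1 and -1.05 ± 0.380 for Rnase1 (SE, limma adjusted p = 0.0872, 0.164 and 0.107), where 8 to 19 pancreas markers were above background in row 1 and 5 to 7 in row 2.

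The trypsin inhibitor Spink1, which is also made by the pancreas, ran the other way. It had a ratio of 3.75 on CC 1, 0.49 on C 9, 2.18 on CC 2 and 3.04 on C 10, and of 3.82, 4.95, 4.06 and 4.53 on C 11, CC 3, C 12 and CC 4. All 4 arrays of row 2 lay above all 4 of row 1, and the lowest value was on C 9, which is not one of the arrays high in pancreas markers. The difference was 1.98 ± 0.523 (SE, limma adjusted p = 0.144), and on the mixture slide it was -1.10. Of the 7 pancreas list members tested, 2 were lower and 1 higher at an unadjusted p below 0.05, against 10% and 7.60% of all genes. Their median was -1, and 2 of the 7 entered the fit only through row 1. The count of lower genes was 0 without CC 1, CC 2, CC 3 or CC 4, 4 without C 10 and 5 without C 11. Over the fits with 1 array left out, 1390 to 2198 of all 12260 genes passed in either direction.

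Transcripts of brown fat marked another pair of row 1 arrays. Ucp1, the uncoupling protein that defines brown fat, had a ratio of 3.46 on CC 1 and 3.19 on C 10 and was not well above background on the other 6 arrays, where it lay between 0.06 and 0.13. Cidea, a lipid droplet gene, had 2.66 on CC 1 and 1.90 on C 10 against 0.20 to 0.70 elsewhere. The fat hormone adiponectin (Adipoq) had 1.21 on CC 1 and 1.01 on C 10 and was not well above background elsewhere. Cox8b, a subunit of cytochrome oxidase found in muscle and brown fat, had 6.48 on CC 1, 6.43 on CC 2 and 2.52 on C 10, and 0.20 to 0.52 on C 9 and the row 2 arrays, a row difference of -3.52 ± 0.911 (SE, limma adjusted p = 0.143). It was high on all 3 arrays that carried muscle or brown fat transcripts and low on the 5 that carried neither. The 8 fat list members tested had a median difference of -0.28. At an unadjusted p below 0.05, 3 were lower and 0 higher, against 10% and 7.60% of all genes. There was 1 lower without C 10 and 5 lower without CC 2, where 2195 and 2198 of all 12260 genes passed in either direction.

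**Figure D3:**
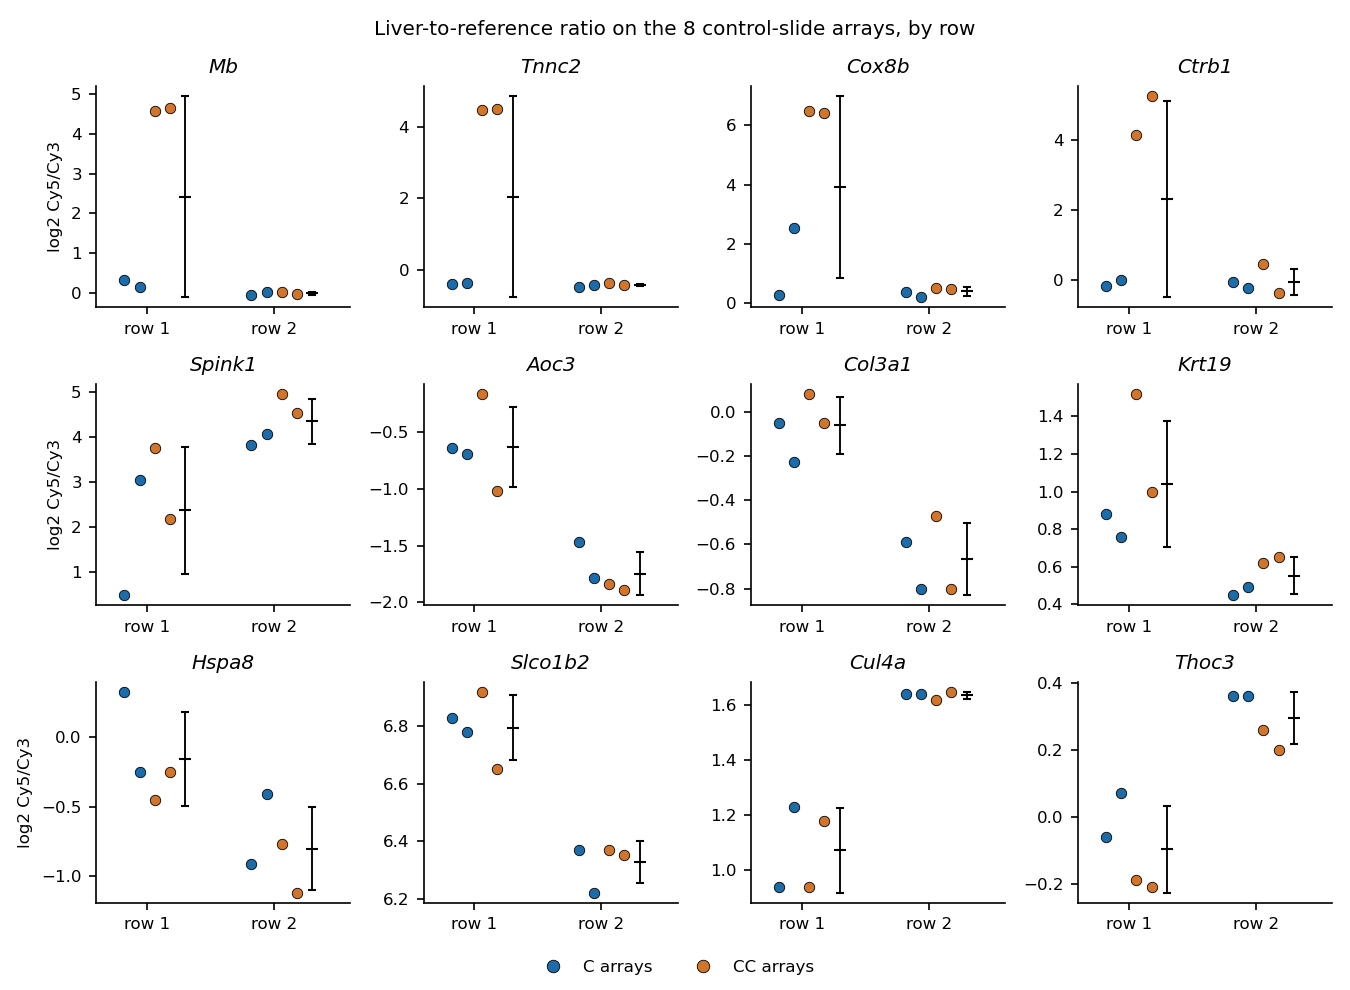
The log2 ratio of Cy5 to Cy3 on each of the 8 control-slide arrays for 12 genes, with row 1 left and row 2 right in each panel, C arrays blue and CC arrays orange, and the row mean ± SD as a bar. In Mb, Tnnc2 and Ctrb1 only CC 1 and CC 2 are high, in Cox8b also C 10, while in Aoc3, Col3a1, Krt19, Slco1b2, Cul4a and Thoc3 all 4 arrays of a row lie apart from all 4 of the other.

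Whether a row difference itself differed between CC and C was tested with an interaction term. Limma called 24 of 12260 genes (0.196%, with 4.38% at an unadjusted p below 0.05), 21 of them more negative in CC (0.171%) and 3 more positive, and 20 of the 24 were also called in Cy5 alone. Muscle genes led: Tnnc2 was at -4.91 in CC and -0.06 in C (difference -4.84 ± 0.121 SE, limma adjusted p = 1.87e-06), and Myh8 at -5.32 and -0.04 (-5.28 ± 0.143, limma adjusted p = 1.87e-06). Among the rest were Mb, Myl11, Tnni2, Tnnc1, Tnnt1, Eno3, Lmod2, Myl4, Fabp3, Cryab, Fhl1, Des, Tmod4 and Hrc, which are all expressed in striated muscle, and the pancreatic Ctrb1. The 3 genes more positive in CC were the fatty acid ligase Acsm5, the antigen-processing gene Tapbpl and 1 probe without a gene symbol. In Cy5 alone neither Acsm5 nor Tapbpl passed (limma adjusted p = 0.182 and 0.473). Acsm5 had 5.31 on CC 1 and 5.31 on CC 2 against 6.56 on CC 3 and 6.93 on CC 4, while in C it had 5.99 and 5.95 in row 1 against 5.36 and 5.17 in row 2 (interaction 2.15 ± 0.188 SE, limma adjusted p = 0.00289). Its Cy3 signal was 7.48 on CC 1 and 6.59 to 6.83 on the other 7 arrays, and another probe for it gave a row difference of 0.23 against 0.36. Without CC 2 the interaction called 116 genes, and over the 8 fits with 1 array left out it called 14 to 116. With the array's column on the slide as a block in place of this term, limma called 21 genes between the rows. Columns 1 and 3 held CC in row 1 and C in row 2, and columns 2 and 4 the reverse, so the column block takes up the row-by-group interaction and the 2 cannot be told apart.

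For some genes of connective tissue, vessel wall and linings all 4 arrays of row 1 were above all 4 of row 2. The amine oxidase Aoc3, a vascular and fat cell protein, had a ratio of -0.16, -0.64, -1.02 and -0.69 on CC 1, C 9, CC 2 and C 10, and of -1.47, -1.84, -1.79 and -1.89 on C 11, CC 3, C 12 and CC 4. The rows did not overlap, and the difference was -1.12 ± 0.173 (SE, limma adjusted p = 0.108), with -0.96 within C, -1.27 within CC and -0.16 on the mixture slide. Type III collagen (Col3a1) had 0.08, -0.05, -0.05 and -0.23 in row 1 and -0.59, -0.47, -0.80 and -0.80 in row 2, again with no overlap. Its difference was -0.60 ± 0.0949 (SE, limma adjusted p = 0.108), and on the mixture slide -0.42 (unadjusted p = 0.0263). The collagen Col1a2 and the proteoglycan decorin (Dcn) also did not overlap, at -0.77 ± 0.156 and -0.69 ± 0.163 (SE, limma adjusted p = 0.12 and 0.134), and both were highest on CC 1.

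Of the 14 stellate cell and fibroblast genes tested, 7 were lower in row 2 at an unadjusted p below 0.05 and 0 higher, against 10% and 7.60% of all genes, with a median of -0.14, and 4 were lower without C 10, C 12 or CC 4. Their 5 genes without overlap, all lower in row 2, stand beside 7.16% of all genes with no overlap and lower values in row 2. Smooth muscle genes gave 3 lower and 0 higher of 7, with 2 wholly lower in row 2 and 1 (Smtn, 0.07) wholly higher. Without CC 1 there were still 3 lower. The median of this list was -0.17, with -0.06 within C and -0.33 within CC. Its member Des, one of the interaction genes, was at -0.12 within C and -1.45 within CC. The enteric actin Actg2 was at -0.82, and another probe for it at -0.47. The smooth muscle myosin Myh11 was at -0.32, but it was above background on all 4 arrays of row 1 and on 1 of row 2. It therefore entered the fit only through row 1 and had to be lower in row 2, and it is 1 of the 3. Mesothelial genes gave 3 lower of 4, with the surface glycoprotein gene Gpm6a at -0.63 ± 0.131 and the transcription factor Wt1 at -0.39 ± 0.0841 without overlap (SE, limma adjusted p = 0.12 for Wt1). Wt1 was above background on 3 arrays of row 1 and none of row 2, so it entered the fit only through row 1, had to be lower in row 2, and is 1 of the 3. Bile duct genes gave 3 lower of 8 (1 without C 11), of which 2 did not overlap, led by the keratin Krt19, which had 0.76 to 1.52 in row 1 and 0.45 to 0.65 in row 2. Of the 8 bile duct genes, 1 entered the fit only through row 1. Over the fits with 1 array left out, 1390 to 2198 of all 12260 genes passed in either direction. Without CC 1 the list medians moved to -0.05 for smooth muscle and, from -0.14, to -0.04 for bile duct genes. They were then -0.18 for stellate cell and fibroblast genes and -0.43 for mesothelial genes. None of these genes passed the adjusted threshold, and on the mixture slide the 4 list medians were between -0.04 and 0.05.

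With all 8 arrays, 0 or 1 gene in each direction passed an unadjusted p below 0.05 in each list of resident and blood cell markers. Over all genes 10% passed lower and 7.60% higher. In either direction 2158 of 12260 genes passed with all arrays, 2198 without CC 2, 2021 without CC 1 and 1656 without CC 3. Kupffer cell and macrophage genes gave 0 lower and 0 higher of 23 (5 lower without CC 2, 3 without CC 3 and 2 without CC 1), with the lectin Clec4f at 0.22 and the haemoglobin receptor Cd163 at -0.05. Liver endothelial genes gave 1 lower and 1 higher of 11, with Lyve1, Cdh5 and Pecam1 at -0.11, 0.04 and -0.03. Erythroid genes gave 1 lower of 11, but 6 lower without CC 1 and 6 without CC 3, and their median was -0.09 with all arrays and -0.27 without CC 1. Of the 11 erythroid genes, 2 entered the fit only through row 1, as did 1 Kupffer cell gene and 1 endothelial gene. The haem synthase Alas2 was at -0.26. The globin Hbb was at 0.30, at -0.38 without CC 1 and at -0.13 by another probe, and Hbb-b1 was at -0.04, or -0.38 without CC 1. Platelet genes gave 1 lower of 3, with Pf4 and Gp1bb at -0.04 and 0.02. Neutrophil, B cell and T cell lists gave 0 of 6, 0 of 2 and 0 of 9, with S100a9 and S100a8 at -0.14 and 0.10, Cd79b at -0.16, and Cd3d and Cd3g at -0.18 and -0.27. Of the 9 adrenal, 9 kidney, 12 gut and 7 islet markers with a probe, 2, 1, 4 and 1 passed the filter and were tested, with list medians of 0.21, 0.11, 0.19 and -0.11. The adrenal Akr1b7 was at 0.53 and the gut peptide Tff3 at 0.44, the latter without overlap (limma adjusted p = 0.22 and 0.152), while Cyp21a1, Aqp2, Fabp2 and Ins2 were at -0.10, 0.11, -0.07 and -0.11. Of the 4 gut genes tested, 1 entered the fit only through row 2.

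CC 1 carried further transcripts that no other array of the slide carried at that level. Its Cy5 signal was at least 1 log2 unit above all other 7 arrays for 32 genes, against 0 to 5 on each of the others. Among them were genes of lymphoid tissue: the lymph node chemokines Ccl21 (10.51 in Cy5 against 7.48 to 8.21) and Ccl19 (10.47 against 8.07 to 8.38), the T cell receptor subunits Cd3d (8.79 against 7.39 to 7.68) and Cd3g, Coro1a and Il2rg. Others were the calcium-binding S100a4 (12.52 against 10.34 to 10.67) and annexin A2 (Anxa2). Ratios on CC 1 were 5.36 for Ccl21, 4.7 for Ccl19, 0.76 for Il2rg and 0.05 for Coro1a. They were negative for Cd3d (-1.16), Cd3g (-1.6), Anxa2 (-1.87) and S100a4 (-3.32). Those last genes, Cd3d and Cd3g included, were brighter in the cell line reference than in liver on all 8 arrays. These genes were chosen after their values were seen. On the first principal component of the ratios, which held 39.2% of the variance, CC 1 lay at -29.9, CC 2 at -10 and the other 6 arrays at 2.7 to 8.7.

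The reference channel of CC 1 also stood apart, in the brightest liver and blood transcripts. For 35 genes its Cy3 signal was at least 1 log2 unit above that of all other 7 arrays, and for no gene was this so on any other array. The Cy3 signal of Hbb was 11.42 on CC 1 and 8.87 to 9.08 on the others, that of the anticoagulant Serpinc1 11.27 against 9.04 to 9.20, that of the glutathione transferase Gsta2 10.17 against 7.71 to 8.20, that of transthyretin (Ttr) 12.99 against 10.74 to 11.03, and that of Alb 11.56 against 9.91 to 10.18. Of the 35 genes, 10 belong to the plasma protein list and 5 to the acute phase list, and their median Cy5 signal was 16.47 against 8.03 over all genes. Cy5 of Alb on CC 1 was 17.46 and within the 17.24 to 17.54 of the other arrays, so its low ratio of 7.13 there came with the high Cy3 value. The plasma protein list had a median row difference of 0.26 in the ratio, 0.06 in Cy5 and -0.19 in Cy3. Without CC 1 its ratio median was -0.10, with 7 of 22 lower at an unadjusted p below 0.05. In that fit 2021 of all 12260 genes passed in either direction.

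**Figure D4:**
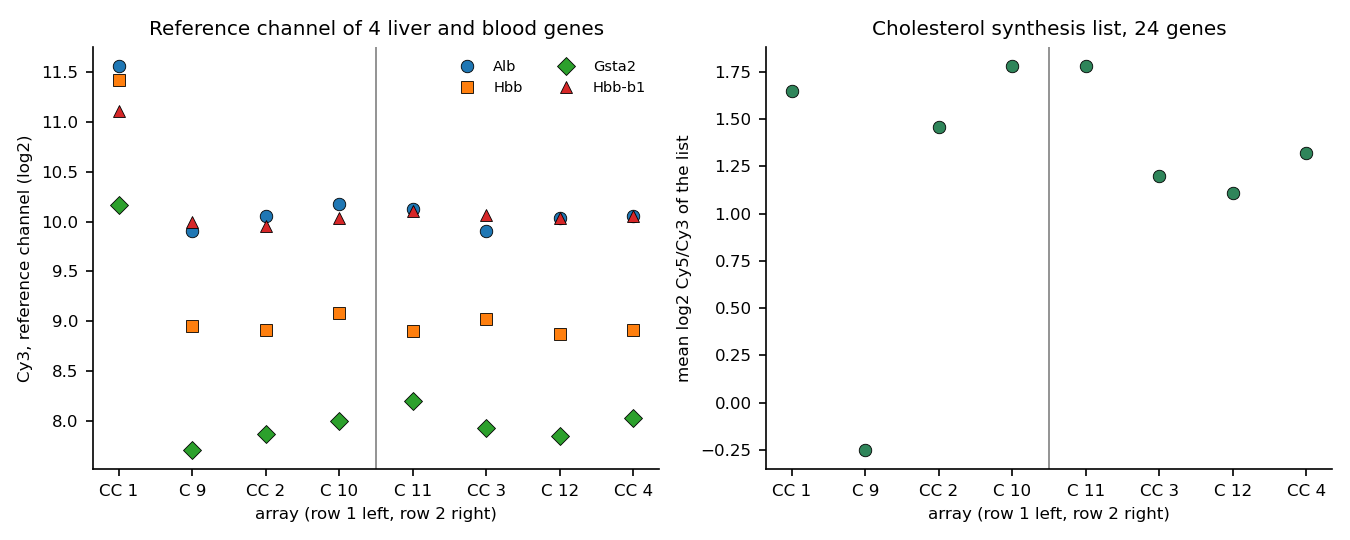
Left, the Cy3 reference signal (log2) of Alb, Hbb, Gsta2 and Hbb-b1 on the 8 control-slide arrays, and right, the mean log2 ratio of the 24 cholesterol synthesis genes on the same arrays, row 1 left and row 2 right. CC 1 is the highest array for all 4 genes in Cy3 (11.56 for Alb against 9.91 to 10.18), and C 9 is the lowest for cholesterol synthesis (-0.25 against 1.11 to 1.78).

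Another array of row 1, C 9, set the value of the cholesterol synthesis list. The mean ratio of its 24 genes was -0.25 on C 9 and 1.65, 1.46 and 1.78 on CC 1, CC 2 and C 10, against 1.78, 1.20, 1.11 and 1.32 on C 11, CC 3, C 12 and CC 4. All 24 genes were lowest on C 9, and 17 of them lay at least 1 log2 unit below every other array. The synthase Hmgcs1, at the entry to the pathway, had 0.90 on C 9 against 2.73 to 4.09, squalene epoxidase (Sqle) -1.75 against 0.23 to 1.30, and the sterol reductase Dhcr7 -1.23 against 0.88 to 1.52. The sterol-responsive Insig1 and the fatty acid genes Fasn, Scd and Elovl6 were low on C 9 as well. The reference signal did not move with them, since Cy3 of Dhcr7 was 10.98 on C 9 and at most 10.99 elsewhere, and that of Scd 11.15 and at most 11.21. The list's median row difference was 0.22 with all arrays and -0.31 without C 9 (7 of 24 lower at an unadjusted p below 0.05), so its direction rests on that array. In the fit without C 9, 1797 of all 12260 genes passed that threshold in either direction.

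Among genes with a symbol the 10 smallest p-values in the ratio belonged to Cul4a, Smco4, Thoc3, Lrmda, Aoc3, Tor1aip1, Col3a1, Zfp524, Arl8b and Slco1b2, all at a limma adjusted p of 0.108. Cul4a, a scaffold of ubiquitin ligases, had 0.94, 0.94, 1.18 and 1.23 on CC 1, C 9, CC 2 and C 10 and 1.64, 1.62, 1.64 and 1.65 on C 11, CC 3, C 12 and CC 4. Row 2 was tightly grouped and wholly above row 1, by 0.56 ± 0.0829 (SE, limma adjusted p = 0.108), and its Cy3 differed by -0.01. On the mixture slide the difference was 0.64 ± 0.0917 and passed there (SE, limma adjusted p = 0.0331). Thoc3, a subunit of an mRNA export complex, was higher in row 2 by 0.39 ± 0.0599 and on the mixture slide by 0.52 ± 0.113 (SE, limma adjusted p = 0.108 and 0.0375). Tor1aip1, a protein of the nuclear envelope, was at -0.49 and passed on the mixture slide at -0.60 (limma adjusted p = 0.0433), although another probe for it gave 0.07. Lrmda was higher by 0.45 with no overlap, but at 0.01 on the mixture slide.

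The organic anion carrier Slco1b2 had 6.92, 6.83, 6.65 and 6.78 in row 1 and 6.37, 6.37, 6.22 and 6.35 in row 2, with no overlap and a difference of -0.46 ± 0.0764 (SE, limma adjusted p = 0.108). The glucuronosyltransferase Ugt2b1 was lower by -0.37 ± 0.0752, and on the mixture slide by -0.57 ± 0.140, where it passed (SE, limma adjusted p = 0.12 and 0.0462). With the scanner software's own log ratio both turned slightly positive, to 0.06 and 0.08. The adhesion molecule Icam1 was higher in row 2 by 0.33 in the ratio and 0.42 in Cy5 (limma adjusted p = 0.108 and 0.0737). The co-chaperone Dnajc25 and the assembly factor Uqcc1 were also higher, at 0.43 and 0.31, and both passed on the mixture slide at 0.52 and 0.47 (limma adjusted p = 0.0331 and 0.0422). Tax1bp3 was at -0.41, and its other probe at 0.02. For Tcf15 the ratio difference was only -0.13, while Cy5 differed by -0.42 (limma adjusted p = 0.0831) and Cy3 differed by -0.27 in the same direction. The ketone body enzyme Bdh1 and the hepatokine Fgf21 were lower in row 2 with no overlap, at -0.76 and -0.49, while Bdh1 was at -0.02 on the mixture slide and Fgf21 at 0. Fgf21 was above background on 4 arrays of row 1 and 2 of row 2, so it entered the fit only through row 1.

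Heat shock genes encode chaperones that fold and protect proteins. Of 16 tested, 9 were lower and 0 higher in row 2 at an unadjusted p below 0.05, against 10% and 7.60% of all genes, with a median of -0.20. Of the 16, 4 were wholly lower in row 2, against 7.16% of all genes, and 1 entered the fit only through row 1. None passed after adjustment. The constitutive chaperone Hspa8 had -0.45, 0.33, -0.25 and -0.25 on CC 1, C 9, CC 2 and C 10 and -0.91, -0.77, -0.41 and -1.12 on C 11, CC 3, C 12 and CC 4, a difference of -0.65 ± 0.157 (SE, limma adjusted p = 0.134). The rows overlapped by C 12 and CC 1, and on the mixture slide Hspa8 was at -0.37 (unadjusted p = 0.0343). The other 3 probes of Hspa8 gave -0.40, -0.29 and -0.40. Hsp90aa1 was at -0.33, and its other probes gave -0.25 and -0.1. Hspa4 was at -0.22, Stip1 at -0.21, Hsph1 at -0.17 and Hspe1 at -0.13, and Cryab, which muscle also expresses, at -1.01 with -0.05 within C. The small heat shock protein Hspb1 was at -0.54 with all arrays and -0.24 without CC 1, where its ratio was -2.73 against -4.22 to -3.85 on the other 7. Within C the list median was -0.08 and within CC -0.30, and over the fits with 1 array left out it ran from -0.24 to -0.14. The count of lower genes was 3 without CC 3 and 4 without C 9 or CC 4. Without C 11, C 12 or CC 1 it was 6. Over the fits with 1 array left out, 1390 to 2198 of all 12260 genes passed in either direction. In Cy5 alone 5 of the 16 were lower and 1 higher at an unadjusted p below 0.05, against 7.71% and 9.91% of all genes. On the mixture slide the list's median ratio difference was -0.07. There 3 were lower and 0 higher at an unadjusted p below 0.05, against 14.9% and 14.0% of all genes.

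The promoters of 3 of these genes are shown because heat shock factors bind paired GAA units, and the capitals mark each match to GAANNTTC, which reads the same on both strands. The sequences are RefSeq's on GRCr8, the 250 bases before the gene start in the direction of the gene.
Hspa8, chr8:50080264-50080513, plus strand: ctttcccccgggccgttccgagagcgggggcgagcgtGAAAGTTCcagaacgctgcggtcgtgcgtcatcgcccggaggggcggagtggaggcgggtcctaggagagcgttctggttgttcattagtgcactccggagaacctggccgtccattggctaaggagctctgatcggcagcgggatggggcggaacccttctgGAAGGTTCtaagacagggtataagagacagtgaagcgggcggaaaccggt
Hsph1, chr12:10427118-10427367, plus strand: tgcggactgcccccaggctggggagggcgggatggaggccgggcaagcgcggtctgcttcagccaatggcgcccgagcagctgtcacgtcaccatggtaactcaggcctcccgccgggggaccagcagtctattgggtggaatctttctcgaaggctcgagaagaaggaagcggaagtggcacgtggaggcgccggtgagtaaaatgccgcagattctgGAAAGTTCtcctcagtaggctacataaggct
Hspe1, chr9:64084077-64084326, plus strand: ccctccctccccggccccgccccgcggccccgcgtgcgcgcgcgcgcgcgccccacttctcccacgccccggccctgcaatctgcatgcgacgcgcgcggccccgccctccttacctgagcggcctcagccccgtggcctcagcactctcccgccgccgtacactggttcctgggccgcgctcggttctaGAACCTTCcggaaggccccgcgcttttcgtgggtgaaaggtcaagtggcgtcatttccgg
Hspa8 held 2 matches, and Hsph1 and Hspe1 held 1 each. Of the 16 heat shock genes tested, 13 had a promoter in the table and 8 of these held a match, against 7.23% of all 33469 promoters. Hspa4 and Stip1, which did not overlap between the rows, had none in this window. A match is a description of the letters and not a measured binding site.

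Genes of protein synthesis and cell division differed by small amounts. Of 32 ribosomal protein genes, 9 were lower and 0 higher at an unadjusted p below 0.05, and 11 lay lower in row 2 with no overlap, with a list median of -0.12. Over all genes these shares were 10% lower, 7.60% higher and 7.16% wholly lower. Rpl13 had -0.54, -0.54, -0.50 and -0.60 in row 1 and -0.81, -0.88, -0.83 and -0.81 in row 2, a difference of -0.29 ± 0.0575 (SE, limma adjusted p = 0.12), and -0.44 on the mixture slide. Rps6 was at -0.40, and on the mixture slide at -0.36 (limma adjusted p = 0.0343), but another probe for it gave -0.12 on the control slide. The list as a whole was at 0.01 on the mixture slide, with 5 lower and 5 higher. Of 22 proliferation genes 0 were lower and 6 higher, against 10% and 7.60% of all genes, with a median of 0.17. The mitotic kinases Cdk1 and Bub1 were at 0.28 and 0.24, and the cyclin Ccna2 was at 0.23 with no overlap, while on the mixture slide the list median was -0.04. The count of higher genes was 13 without CC 1 and 4 without C 11 or CC 4. On the fits without C 9, C 10, C 12, CC 2 or CC 3 it was 5 to 8. Over all 12260 genes 2021 passed in either direction without CC 1, 1889 without C 11 and 1390 without CC 4. With all arrays 2158 did.

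The other hepatocyte lists were counted in the same way, lower and then higher at an unadjusted p below 0.05, beside 10% and 7.60% of all genes. Acute phase genes gave 0 lower and 0 higher of 21, with a median of 0.14 that was -0.03 without CC 1. Cytochrome P450 and other phase I enzymes gave 3 and 3 of 32, conjugation enzymes 4 and 4 of 29 (7 higher without CC 2), and amino acid catabolism and urea cycle genes 1 and 1 of 29. Respiratory chain genes gave 1 and 1 of 31 with a median of 0.04, interferon response genes 2 and 3 of 24 with a median of 0.16 (8 higher without C 12 and 6 without C 9), glycolysis and gluconeogenesis genes 1 and 3 of 21, circadian clock genes 1 and 3 of 12, and bile acid genes 2 and 1 of 17. Genes of fatty acid synthesis gave 0 and 0 of 19. Fatty acid oxidation genes gave 2 and 1 of 27 (7 lower without CC 1). Over all 12260 genes 2021 passed in either direction without CC 1, 2198 without CC 2, 1976 without C 12 and 1797 without C 9. Growth hormone axis and sex-biased genes gave 0 and 1 of 14 with a median of 0.15. Some members entered the fit only through row 1, which favours a lower value in row 2. They were 2 phase I enzyme genes and 2 interferon response genes. The conjugation, circadian clock, fatty acid oxidation and growth hormone lists each had 1. Only through row 2 came 1 interferon response gene. None of the 42 lists held a member that passed the adjusted threshold.

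The rows of the mixture slide were compared next, since its arrays and pups are separate. Its row 1 held M 5, MM 1, M 6 and MM 2, and its row 2 held MM 3, M 7, MM 4 and M 8. The lower pool numbers thus lay in row 1 on this slide too. Row and pool numbering cannot be told apart on either slide, nor by comparing them. Over all 12260 genes 73.0% differed in the same direction between rows on both slides, and of the 2158 genes at an unadjusted p below 0.05 on the control slide 1960 did so (90.8%). Of those 2158, 1249 also had an unadjusted p below 0.05 on the mixture slide in the same direction (57.9%), where 28.9% of all genes had such a p in either direction. Across genes, which are not independent replicates, the row differences of the slides correlated with Pearson's r of 0.53 in the ratio, 0.55 in Cy5 and 0.21 in Cy3. Limma called 863 genes (7.04%) between the rows of the mixture slide alone. The test of the difference between the slides called 0 genes with limma, with 721 at an unadjusted p below 0.05 (5.88%) and a smallest adjusted p of 0.776.

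**Figure D5:**
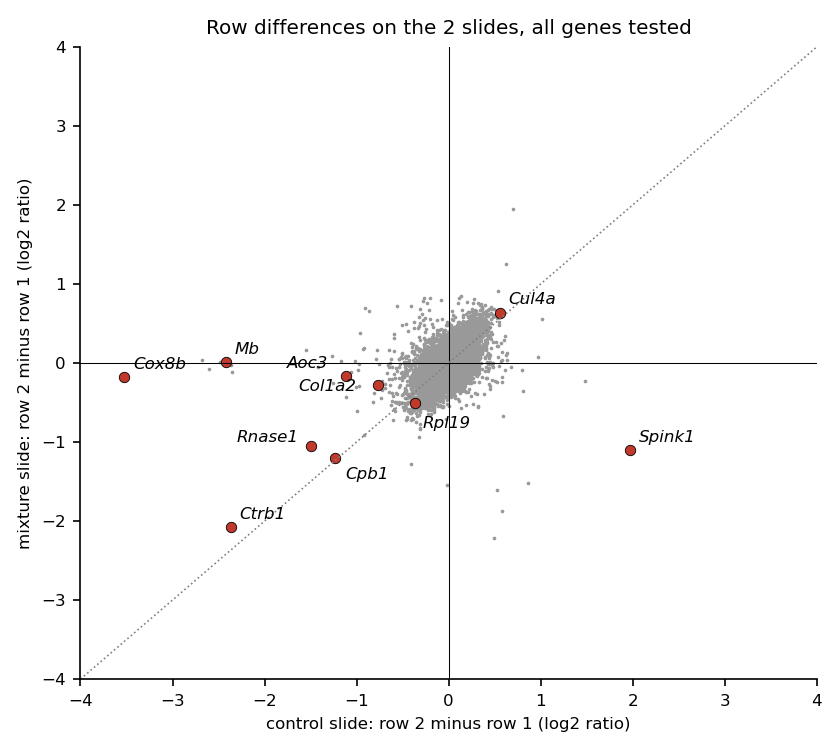
Row 2 minus row 1 of the log2 ratio on the control slide (horizontal) and on the mixture slide (vertical) for all genes tested, with named genes in red and the dotted line marking equal values. The differences on the slides go together across genes (r = 0.53), Mb and Cox8b lie at 0.01 and -0.18 on the mixture slide, Ctrb1 is low on both, and Spink1 has opposite signs (1.98 and -1.10).

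Within the control slide the rows of C and of CC were also set side by side. Their row differences had the same sign for 62.1% of genes, with r = 0.23 across genes. More than 2-fold differences were seen for 47 genes lower and 17 higher within CC, against 10 lower and 13 higher within C. The share of genes at an unadjusted p below 0.05 was larger at higher signal, from 11.7% in the dimmest of 5 equal groups of genes to 24.4% in the brightest. The part of signal in the row differences was not tested.

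With the array's column added as a block, limma called 21 genes in the ratio and 18 in Cy5. Of the 21, 20 were lower in row 2, including Mb, Myh8, Myl11, Tnnc2, Tnni2, Cox8b, Ctrb1 and Aoc3, and 17 were among the 24 genes of the interaction. Within CC alone 25 genes were called, of which 20 were among those 24, and within C alone limma called 0 genes, with 1018 at an unadjusted p below 0.05. Without CC 1 and CC 2 together, 1 gene was called, a probe without a gene symbol. Many genes named above from the lists, among them those of muscle, pancreas, heat shock and ribosomes, were chosen after their values were seen.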

How the data were processed

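Scanner files of 16 Agilent 2-colour arrays were used. Per the file headers, Feature Extraction 11.0.1.1 gave each spot's intensity, and the deposited files hold median spot and background intensities and a log10 ratio from the scanner software. The deposited series table holds the authors' log2 ratios, which tracked those computed here (r 0.998 to 0.999, slope 1.01 to 1.02), with column medians of -0.049 to -0.043. Median signals were used where mean signals are the more usual choice.

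With limma 3.58.1 in R 4.3.3, signals were background corrected (normexp, offset 50) and normalized by loess within each array, with control spots at weight 0 and outlier spots left out. Channels were quantile normalized one at a time. Probes needed Cy5 clearly over background on 3 or more of the 4 arrays of a row, and the brightest probe stood for a gene, which left 12260 genes or identifiers (8114 with a symbol, named through RefSeq identifiers on GRCr8). Row was fitted with group as a block (lmFit, eBayes, 5 residual degrees of freedom, two-sided, Benjamini-Hochberg adjustment over all genes, threshold 0.05). The code was tested on simulated data.

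Genes named were the 10 with the smallest p in the ratio, further genes led by Cy5, and the first 3 markers with a probe of each tissue list. Others were chosen after their values were seen. The arrays, the 42 gene lists and the rule were chosen with earlier results of these data known. Labels call the arrays biological replicates, and p-values measure the spread between these pools. Alternatives were other blocks, scaling, filters, probes, variance models and samples.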

Additional observations from a re-analysis of the deposited data

Results flagged for a closer look

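In 184 groups of 4 values (the named genes and the array measures within a row) the gap of the highest or lowest array to the next was compared with the range, and 11 exceeded Dixon's critical share. Chance alone gives about 1 in 20 for groups that were not picked by their values. Many of these genes were picked in that way, so the count of 11 was not tested against that rate. CC 1 was the array apart in 6 of the 11. It was low for Alb (7.13 against 8.93 to 9.01 on the other row 1 arrays), Hbb (6.41 against 8.91 to 9.12), Hbb-b1 (7.50 against 8.70 to 8.80) and Alas2 (4.87 against 5.17 to 5.19), and high for the T cell genes Cd3d (-1.16 against -2.66 to -2.46) and Cd3g (-1.60 against -3.21 to -3.02). CC 2 was high for the platelet gene Gp1bb (-1.31 against -1.62 to -1.58). In row 2, C 12 was low for Slco1b2 (6.22 against 6.35 to 6.37) and Fhl1 (-3.14 against -3.01 to -3), CC 3 for Icam1 (0.15 against 0.24 to 0.25), and C 11 in median Cy5 intensity (90.5 against 95.5 to 96).

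The row difference differed between CC and C, by limma's interaction term after adjustment, for 19 genes with a symbol. The values, CC minus C, were -5.28 for Myh8, -5.24 for Myl11, -4.84 for Tnnc2, -4.68 for Tnni2, -4.35 for Mb, -3.22 for Tnnc1, -3.09 for Tnnt1, -2.67 for Eno3, -2.29 for Fabp3, -2.24 for Lmod2, -1.93 for Cryab, -1.80 for Myl4, -1.71 for Hrc, -1.62 for Tmod4, -1.60 for Fhl1 and -1.33 for Des, which muscle expresses. The pancreatic Ctrb1 was at -4.60. Tapbpl and Acsm5 were at 1.05 and 2.15.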

How the results depend on the processing

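With the array's column as a block, limma called 21 genes in the ratio, 18 in Cy5 and 18 in both, 1 of the 21 higher in row 2 (Rec114, 0.80). With all 16 arrays in the fit it called 1, 7 (Cul4a and Icam1 among them) and 1. Within CC it called 25, 27 and 23, and 19 of the 25 were also called with the column as a block. Without CC 1 and CC 2, a setting chosen after seeing the data, it called 1, 1 and 1. Other scaling between arrays gave 13 in Cy5, with Aoc3, Arl8b, Tcf15 and Tor1aip1. The interaction called 12 genes with the scanner software's signals and 80 with no filter, against 24. With 1 array left out, the counts were 0 to 0 in the ratio (1390 to 2198 at an unadjusted p below 0.05), 0 to 0 in Cy5 and in both, 0 to 1 in Cy3 (the 1 without CC 2), 14 to 116 for the interaction (116 without CC 2) and 0 to 0 between the slides. The ratio count was also 0 with no group block, the scanner's signals (771 at an unadjusted p below 0.05), other scaling, either filter, outlier spots kept, probe means, trend and robust variances, and the series table. The column block takes up the row-by-group interaction, since columns 1 and 3 held CC in row 1 and C in row 2 and columns 2 and 4 the reverse. The cause of the other changes was not tested.

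The 89 named genes' row differences changed sign as follows, none of them past the threshold with all arrays. Within C, and equally without CC 1 and CC 2, the values were Acsm5 -0.71, Alb -0.22, Cd3d 0.11, Cd3g 0.14, Cdh5 -0.03, Clec4f -0.04, Cpb1 0.01, Cyp21a1 0.06, Eno3 0.07, Fabp3 0.22, Hbb -0.4, Lmod2 0.19, Lyve1 0.12, Myl11 0.01, Myl4 0.25, Rnase1 0.06, S100a8 -0.08, Tagln 0.01, Tapbpl -0.27, Tnnc1 0.19 and Tnnt1 0. Within CC they were Aqp2 -0.08, Cd163 0.04, Fabp2 0.03, Gp1bb -0.1, Hbb-b1 0.4, Marco 0.15, Pecam1 0.01 and S100a9 0.12. With the scanner software's signals they were Cpb1 0.46, Cyp21a1 0.06, Fabp2 0.06, Gp1bb -0.01, Ins2 0.08, Lrat 0.01, Marco 0.22, S100a9 0.18, Slco1b2 0.06, Tcf15 0.15 and Ugt2b1 0.08. With other scaling they were Cd163 0.07, Fabp2 0.02, Gp1bb -0.02, Hbb-b1 0.19, Lrat 0.04, Lyve1 0.02 and Pecam1 0.01. Over the 8 fits with 1 array left out, the ranges were Alb -0.15 to 0.57, Cd163 -0.15 to 0.03, Cd3d -0.42 to 0.18, Cd3g -0.51 to 0.14, Cd79b -0.29 to 0.01, Cdh5 -0.01 to 0.07, Fabp2 -0.3 to 0.12, Gp1bb -0.01 to 0.1, Hbb -0.38 to 0.7, Hbb-b1 -0.38 to 0.14, Pecam1 -0.07 to 0.03, Pf4 -0.11 to 0.03, S100a8 -0.05 to 0.32 and S100a9 -0.37 to 0.2. Of the 89, 18 passed with the column as a block and 19 within CC. The filter on all arrays left 80 of them.

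No paired analysis was possible because the rows share no replicate number within a group and nothing pairs C with CC pools by number. The array's column, a place on the slide, was fitted as a block as given above. With 4 arrays a row, the number of arrays limits the precision, and dim genes carry a larger relative error.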
